A study of Homo sapiens with 4 samples.

Results

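The new peaks near chromosome ends were the regions of the wild type peak list on chromosomes 1 to 22 whose midpoint lay within 2000000 bp of either end of the hg19 chromosome. The short arms of chromosomes 13, 14, 15, 21 and 22 were left out, which gave 39 windows. Of the 12864 new peaks of the list, 878 lay in these windows, 11789 elsewhere on chromosomes 1 to 22, and 197 on X, Y or unplaced sequences. MBD-seq, which sequences sonicated DNA fragments captured by the part of MBD2 that binds methylated CpGs, was done in HEK293, a human embryonic kidney cell line. Untreated cells were compared with cells transiently transfected with dCas9 carrying 10 SunTag peptides (dCS), an sgRNA for the ISG15 promoter, and the antibody fragment fused to DNMT3A and DNMT3L (Ab-3A3L) as WT, K844E or R887E. The transfected cells were sorted for all 3 plasmids and collected after 3 days. Each of the 4 conditions had 1 library, and the list of regions gained by the wild type condition was the data set used. The other libraries were not analysed here. Without replicates there was no test between conditions, and the intervals below are exact 95% binomial intervals, which cover counting error only.

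Subtelomeres, the regions inside the telomere repeats, hold many genes and CpG islands, arrays of tandem repeats, and gene families copied between the ends of different chromosomes. Many of their CpGs are methylated in somatic cells, whereas CpG islands at gene starts are mostly not. DNMT3A sets new methylation at CpGs and DNMT3L stimulates it, so a promoter island without methylation is a place where new methylation can be seen by MBD-seq.

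The windows held 75.2 Mb of known sequence, 2.80% of chromosomes 1 to 22, and 6.93% of the new peaks of these chromosomes. The density was 11.7 new peaks per Mb near ends and 4.52 in the rest, a ratio of 2.59, which was 1.18 with peaks of at least the median fold of the list. CpG islands, stretches over 200 bp rich in CpGs, were more crowded still near ends, with 68.6 islands per Mb against 16.7 in the rest. The windows thus held 10.6% of the islands but 6.04% of the islands with a new peak. Protein-coding genes near ends made up 6.44% of those of the 22 chromosomes.

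The strongest of these peaks lay on 15q in a coding exon of TARS3, a threonyl-tRNA synthetase, 230 bp from its start. It reached a fold of 37.2, with 62 fragments at its summit over a background rate of 0.694 fragments. The fold is the authors' enrichment at the summit, and the fragments and the rate were recovered from it and the p-value. A peak between transcripts on 20p, 39911 bp from the start of SLC52A3, a riboflavin transporter, had a fold of 17.6. The sequences around both summits are shown because they display how dense CpGs were at strong peaks. They are from the plus strand of hg19, 5′ to 3′, with each CpG in capitals.
TARS3 peak, chr15:102264326-102264565: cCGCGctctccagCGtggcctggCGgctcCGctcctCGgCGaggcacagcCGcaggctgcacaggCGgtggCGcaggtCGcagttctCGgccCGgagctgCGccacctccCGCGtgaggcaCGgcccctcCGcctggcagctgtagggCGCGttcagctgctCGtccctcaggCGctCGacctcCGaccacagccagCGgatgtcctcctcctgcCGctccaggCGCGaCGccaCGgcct
20p peak, chr20:709113-709352: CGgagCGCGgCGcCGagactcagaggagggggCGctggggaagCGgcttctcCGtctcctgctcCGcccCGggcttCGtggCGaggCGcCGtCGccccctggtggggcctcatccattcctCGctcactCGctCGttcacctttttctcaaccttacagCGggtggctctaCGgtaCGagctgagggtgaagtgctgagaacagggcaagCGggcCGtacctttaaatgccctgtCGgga
The TARS3 stretch has 30 CpGs in 240 bases and a GC content of 74.6%, and the 20p stretch has 24 CpGs and 65.8% GC. Over the 878 peaks the median was 48.0 CpGs per peak and 10.6 CpGs per 100 bp.

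The outermost peak of 1p lay in WASH7P, a copy of the WASH gene family, whose functional members encode a subunit of a complex that drives actin assembly on endosomes. The sequence of this peak was present at 5 chromosome ends, and each of the 5 copies carried a new peak. The fold was 25.4 at 1p, 18.1 at 12p (WASH8P), 16.1 at 9p (WASHC1), 14.4 at 15q and 14.4 at 19p. The fragments at these summits numbered 40, 34, 25, 30 and 24 in the same order. The copies at 12p, 15q and 19p aligned over 905 bases to the 1p peak with identities of 99.1%, 98.9% and 99.8%. The copy at 9p aligned in blocks of 218 and 357 bases and lacked the stretch between them. The stretch shown is shared by the 5 copies base for base, on the minus strand at 12p and 15q.
WASH copies, chr1:29020-29119: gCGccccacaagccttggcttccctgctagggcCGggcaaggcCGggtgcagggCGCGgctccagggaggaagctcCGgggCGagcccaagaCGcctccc
In the 1p peak, 85% of the 100-mers occurred elsewhere in hg19, as did 79.7% in the 9p peak, 76.3% in the 15q peak, 69.1% in the 12p peak and 85% in the 19p peak. Reads from these shared stretches cannot be assigned to 1 end, and for them the copies cannot be told apart.

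CpG islands made of tandem repeats rarely carried a new peak. Islands with at least 50% of their bases in tandem repeats numbered 940 near ends, 18.2% of the islands there against 3.33% in the rest. A new peak overlapped 3 of the 940, which is 0.319% (0.0659 to 0.930), and 1.86% (1.23 to 2.70) of the tandem islands of the rest. The first sequence below is from a 7p island of 87 CpGs without a new peak, at chr7:675570-676095. This island was picked for its match to itself from a restricted set of tandem islands near ends without a new peak. The set was limited to islands of at least 75 CpGs with under 50% of their 100-mers found elsewhere. Not all chromosomes were searched, so other tandem islands may match themselves better. The second sequence is from a repeat of the alpha-globin cluster on 16p, chr16:210265-210730. That repeat carried a new peak of fold 3.41 with 45 fragments over a rate of 12.5.
7p repeat, no new peak, chr7:675758-675907: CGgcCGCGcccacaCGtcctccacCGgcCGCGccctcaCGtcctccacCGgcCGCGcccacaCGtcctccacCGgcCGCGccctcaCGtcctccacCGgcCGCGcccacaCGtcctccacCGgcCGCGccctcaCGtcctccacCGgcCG
16p repeat, new peak, chr16:210514-210663: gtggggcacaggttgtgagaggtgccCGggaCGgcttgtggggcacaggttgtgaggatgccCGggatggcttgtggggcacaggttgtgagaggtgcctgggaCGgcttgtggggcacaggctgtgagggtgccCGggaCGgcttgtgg
The 7p island matched itself at 97.2% of its bases after a shift of 24 bp, and the printed 150 bases hold 26 CpGs. The 16p peak matched itself at 88.0% after 73 bp, and its printed bases hold 6 CpGs. In all, 16 of the 878 peaks were tandem, 1.82% (1.05 to 2.94) against 0.746% (0.599 to 0.919) in the rest, and 4 of the 16 lay in an island. They had a median fold of 3.21 (range 1.66 to 7.20) and a median background rate of 13.9. The telomere repeat itself, searched as 2 copies of TTAGGG in a row on both strands, was in none of the 300-base stretches around the 878 summits. It was in 1 of 43503 such stretches at islands of the rest and in none of the 5159 at islands near ends.

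Islands near chromosome ends carried a new peak less often than islands elsewhere. A new peak overlapped 596 of 5159 islands near ends, 11.6% (10.7 to 12.5), and 9279 of 43503 islands in the rest, 21.3% (20.9 to 21.7). Over chromosomes 1 to 22 together, 20.3% of the islands had one. These shares count all islands, also those that may have been methylated before treatment. The paper split islands by their signal in untreated cells, which was not done here. Its islands came from the UCSC Table Browser. The 48662 islands counted here were built from the genome sequence and are more numerous, so these shares have another denominator than the paper's. The part of earlier methylation in the lower share near ends was not tested. The ratio of the share near ends to that of the rest was 0.542. The share was lower near ends than in the rest of the same chromosome in 19 of 22 chromosomes, the exceptions being chromosomes 3, 9 and 15.

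The share was also lower near ends in each of 7 classes of CpG number. It was 3.01% near ends and 14.5% in the rest for islands of 30 to 49 CpGs, and 17.1% (13.2 to 21.4) and 52.2% (50.4 to 53.9) for 75 to 99 CpGs. For 150 CpGs and over it was 49.2% (45.1 to 53.4) near ends and 73.8% (72.1 to 75.4) in the rest. At the shares of the rest in the same classes, 1265 islands near ends would have had a new peak, and the 596 seen were 0.471 of that number. This ratio was lower at the ends than in the rest of the chromosome in each of the 22 chromosomes.

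**Figure D1:**
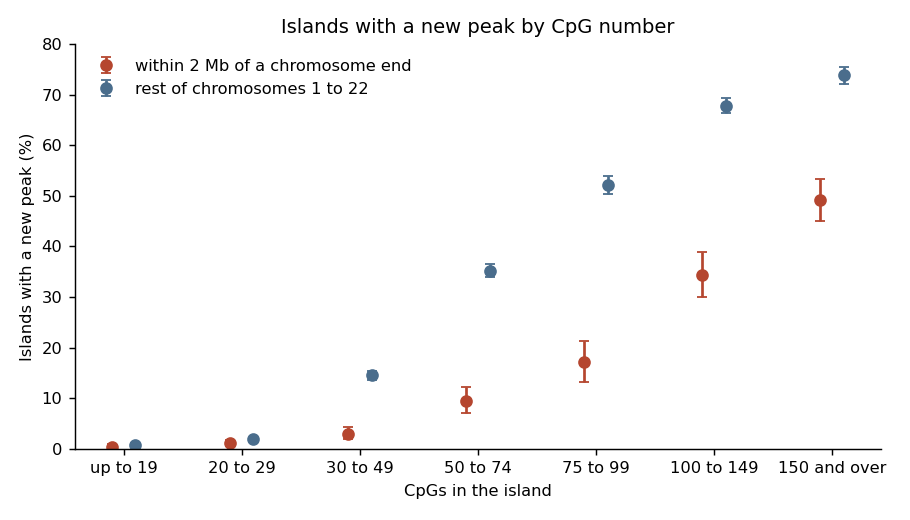
CpG islands that held a new peak (y axis, percent of islands) by the number of CpGs in the island (x axis), for islands within 2 Mb of a chromosome end (red) and in the rest of chromosomes 1 to 22 (blue). Points are shares and bars are exact 95% binomial intervals. The red points lie below the blue ones in each class, at 34.3% against 67.8% in the class before the last.

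The difference was also seen away from repeats and at gene starts. Among islands that were neither tandem nor duplicated (at least 50% of 100-mers found elsewhere), 14.4% (13.3 to 15.5) near ends and 26.0% (25.6 to 26.5) in the rest had a new peak. Those at a coding promoter with at least 75 CpGs had one in 398 of 706 cases near ends, 56.4% (52.6 to 60.1), and in 76.4% (75.4 to 77.4) in the rest. Those with at least 75 CpGs away from coding promoters had one in 88 of 449 cases, 19.6% (16 to 23.6), and in 38.6% (36.6 to 40.7) in the rest. Among duplicated islands the share was higher near ends, with overlapping intervals. A new peak overlapped 20 of 409 near ends, 4.89% (3.01 to 7.45), and 200 of 7459 in the rest, 2.68% (2.33 to 3.07). These islands were not matched by CpG number. Copies whose reads cannot be assigned to 1 place are not separate counts. Fewer islands near ends lay at a coding promoter, 17.6% against 28.2%. With classes of CpG number split further by this position, a comparison added after seeing the data, the ratio was 0.567.

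Coding promoters, taken as 1000 bp on either side of the start of the canonical transcript, were closer to each other. Of 1223 near ends, 489 had a new peak, 40% (37.2 to 42.8), against 44% (43.2 to 44.7) in the rest and 43.7% over both. Promoters with an island of at least 75 CpGs were more frequent near ends, at 834 of 1223, and 54.3% (50.9 to 57.7) of them had a new peak against 74.8% (73.8 to 75.7) in the rest. Promoters without an island had one in 8 of 235 cases near ends, 3.40% (1.48 to 6.6), and in 1.48% (1.16 to 1.85) in the rest. Over genes of all types, 21.5% of the promoters of chromosomes 1 to 22 had a new peak and 22.7% of those near ends did.

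Large islands without a new peak were found at genes of several kinds. The island at the start of FOXC1, a forkhead transcription factor, has 874 CpGs. An island of 1051 CpGs covers UNCX, a homeobox gene, and 1 of 1194 CpGs covers the start of PTBP1, a splicing repressor. The PTBP1 island, chr19:796507-815288, has its middle in an intron, 8446 bp from the start. Its observed over expected CpG ratio is 0.641, near the limit of 0.6 for an island. Over all islands, the median length was 394 bp near ends and 311 bp in the rest. The median observed over expected ratio was 0.805 and 0.860, so islands of the same CpG number can differ in these. Among islands of at least 75 CpGs near ends, those without a new peak had a median of 124 CpGs and a GC content of 70.5%, and those with one had 160 CpGs and 72.8%. In the rest these medians were 105 CpGs and 69.5% without, and 125 CpGs and 71.1% with a new peak.

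By distance from the end, the percentage of islands overlapped by a new peak was 22.9% (15 to 32.6) within 100 kb, where 22 of 96 islands had one, and 11.3% (10.5 to 12.2) from 100 kb to 2 Mb. It was lowest from 1000 to 1500 kb, at 10.1% (8.58 to 11.7), and then 12.7% to 2000 kb, 15.7% to 5000 kb, 20.4% to 10000 kb and 22% farther in. For islands of at least 75 CpGs the share was 23.1% (8.97 to 43.6) within 50 kb, 50% (29.1 to 70.9) from 50 to 100 kb, 33.6% (28.6 to 38.9) from 1000 to 1500 kb and 66.5% beyond 10000 kb. The outermost of these rest on 26 and 24 islands. At the same CpG number, the ratio to the rest was lowest within 50 kb, at 0.375, where 7 of 34 islands had a new peak. It was highest within the windows from 50 to 100 kb, at 0.729, where 15 of 62 had one. Within 100 kb together it was 0.561, so these small classes show no steady change toward the end.

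New peaks near ends had lower folds over higher backgrounds. The median fold was 5.01 (quartiles 3.54 and 7.27) near ends and 7.56 (5.67 and 10.4) in the rest, and ranged from 1.61 to 37.2. A fold of at least 10 was reached by 96 peaks, 10.9% (8.95 to 13.2), against 26.6% (25.8 to 27.4) in the rest. The fragments at the summit were not fewer, with a median of 23 against 17. The background rate, the number of fragments the peak caller set as its reference at the summit, had a median of 3.37 (quartiles 1.46 and 7.34) against 0.878 (0.611 and 2.08). The median fold was lower and the median rate higher at the ends than in the rest of the chromosome in 22 of 22 chromosomes.

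Within classes of the background rate, the folds differed less or went the other way. For rates under 1 the median fold was 9.70 for 153 peaks near ends and 9.31 for 6316 of the rest. For rates from 1 to 10 it was 5.01 for 577 peaks and 6.0 for 5003, and for rates of 10 and over 2.52 for 148 peaks and 2.42 for 470. Rates of 10 and over made up 16.9% (14.4 to 19.5) of the peaks near ends and 3.99% (3.64 to 4.36) of the rest. The fold has the rate in its denominator, so a lower fold at a higher rate follows in part from how it is computed. The rate is known at peaks only, and its part in the lower share of islands was not tested.

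Of the 878 peaks, 737 lay in a CpG island, 83.9% (81.3 to 86.3), against 89.6% (89.0 to 90.1) in the rest. Peaks at coding promoters numbered 519, 59.1% (55.8 to 62.4), against 68.0% (67.1 to 68.8). Another 67 lay at starts of other genes, and 292 away from any start. Of the latter, 113 lay between transcripts, 102 in introns and 38 in coding exons of coding genes, 11 in untranslated exons, and 28 in non-coding transcripts. The median fold was 5.59 at coding promoters, 5.61 at other starts and 3.95 away from starts, over median rates of 2.70, 2.84 and 5.55. The median width was 435 bp, against 505 bp in the rest. At least 2 new peaks were held by 114 islands, 19.1% of those with any, against 11.9% in the rest.

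Besides TARS3 and the WASH copies at 1p and 12p, the 10 peaks of highest fold included 5 at or near coding genes with rates of 0.611. The promoter of ADIPOR2, an adiponectin receptor on 12p, had a fold of 21.7 with 34 fragments. On 10q a peak with a fold of 19.9 lay 6949 bp from the start of CYP2E1, a cytochrome P450 of alcohol metabolism, in an island of 31 CpGs. B4GALNT3, a glycosyltransferase gene on 12p, had a fold of 19.2, and WNK1, a kinase of ion transport on the same arm, 18. ONECUT3, a homeodomain transcription factor on 19p, had a fold of 18.6 in a coding exon. The last of the 10 beside the 20p peak shown above lay at TPRG1LP1, a processed pseudogene on 19q, with a fold of 18. Thus 4 of the 10 strongest peaks lay on 12p, whose window held 16 new peaks in all.

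The 10 peaks nearest to an end lay from 29346 to 54157 bp from it and differed widely in fold. The 3 outermost were the WASH copies of 9p, 1p and 15q described above. Next came DOC2B on 17p, a calcium sensor of vesicle release, at 30788 bp with a fold of 4.57. The 3 peaks on 10q lay in copies of the DUX4L repeat, with folds of 1.97, 1.82 and 1.61. These had 101, 103 and 247 fragments over rates of 50.7, 56.2 and 153. The remaining 3 had a fold of 7.60 at 21q, 2.17 at 2q and 2.5 at 5p. The most fragments at any summit near an end were 270, over a rate of 164, on 18p in ROCK1P1, a partial copy of the kinase gene ROCK1, with a fold of 1.64.

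DUX4 is the transcription factor encoded in the large subtelomeric repeat of 4q, of which 10q has a near-identical array. The island over the 10q array, chr10:135477933-135499120, has 2070 CpGs, and 97.6% of its 100-mers occurred elsewhere in hg19. It held the 3 peaks. The island over the 4q array, chr4:190986383-191014426, has 2749 CpGs with 94.8% of its 100-mers elsewhere, and held none. Of the 100-mers of the 3 peaks, 65.3%, 66.9% and 37.5% occurred in the 4q window, in the order of the folds above. In the first 2 peaks all 100-mers (100%) occurred again in the 10q window, and in the last 37.5% did. Reads of the shared stretches could come from either arm or from another copy of the array, and for these the arms cannot be told apart. The peak with 247 fragments lay mostly in sequence found once in hg19.

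At the limit of the windows, the peaks just inside had folds of 3.56 (9q, at 1992594 bp), 3.69 (8q, at 1990767 bp) and 2.37 (19p, at 1986228 bp). Those just outside had folds of 10.6 and 5.90 on 3q, at 2007510 and 2008048 bp, and 5.97 on 7q, at 2008531 bp.

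The windows differed from each other. A new peak was found in 38 of 39 windows, with a median of 20 per window. The 5 windows with the most peaks were 9q with 84, 16p with 69, 17q with 50, and 8q and 19p with 45 each, and held 33.4% of the 878. The percentage of islands overlapped by a new peak was highest at 20p, with 19 of 54 islands or 35.2% (22.7 to 49.4), followed by 15q with 30% (16.6 to 46.5) and 3q with 28.6% (17.9 to 41.3). These 3 intervals overlap, so the order among them is within counting error. The window of 3p had no new peak in 22 islands, which allows a share of up to 13.6% at 3 counts of 22 (15.4% as the exact upper limit), and holds 2 coding promoters. The share was 2.13% (0.0539 to 11.3) at 4q, 2.22% (0.0562 to 11.8) at 1q and 2.5% (0.519 to 7.13) at 7q. At the same CpG number, 37 of the 39 windows lay under the rest, and 3q (1.02) and 20p (1.11) above it.

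The genes named here were picked after their values were seen, as the strongest of their window. On 20p, the peak at SNPH, a mitochondrial anchor of neurons, had a fold of 14.9. The peak at SOX12, a transcription factor, had 14.5, and that at NRSN2, a neuronal membrane protein, 13.7, over rates of 0.611, 0.65 and 0.755. On 9q the strongest peak, at TMEM203, had a fold of 9.42 with 43 fragments over a rate of 3.67, and the median fold was 3.07 at a median rate of 12.5. The 9q window thus had the most peaks but a median fold under that of the 878. On 1q, where 56 coding promoters lay in the window, the only new peak was at ZNF496, with a fold of 6.21. That window held 45 islands, of which 8 had at least 75 CpGs. Over coding promoters near ends, 54.3% of those with such an island had a new peak, and 3.40% of those without any island. The number of promoters in a window is thus no measure of how many peaks it could gain. At the same CpG number, the ratio of the 1q islands to the rest was 0.0973.

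The alpha-globin cluster lies at the tip of 16p, among widely expressed genes. Of the 16 coding genes listed for this region, 10 had a new peak at the promoter, 62.5% (35.4 to 84.8), with a median fold of 5.90. POLR3K and SNRNP25 share 1 of these peaks. The share over all coding promoters, 43.7%, and that of promoters near ends with an island of at least 75 CpGs, 54.3%, lie within this interval. RHBDF1, an inactive rhomboid protease, had a fold of 9.43 with 24 fragments over a rate of 1.65. LUC7L, a splicing factor, had 7.66 with 31 fragments over 3.18. NPRL3, whose introns hold the enhancers of the globin genes, had 6.21, and AXIN1, a scaffold of Wnt signalling, 6.27. Of the globin genes, HBA1 had a fold of 7.41 and HBA2 5.58. The HBA2 peak consists wholly (100%) of 100-mers found elsewhere and the HBA1 peak to 69.9%, so the values of these near-identical copies are uncertain. HBQ1 had a fold of 2.06, with 44 fragments over a rate of 20.8. Among the 6 genes without a new peak, HBM had the largest promoter island, with 259 CpGs, and HBZ, the embryonic globin, had no island. FAM234A, RGS11, ARHGDIG and PDIA2 also had none of the new peaks.

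Of the genes that maintain telomeres, 3 lie near chromosome ends. RPA1, a subunit of the protein that covers single-stranded DNA, had a new peak with a fold of 8.85 and 15 fragments over a rate of 0.808. TERT, the catalytic subunit of telomerase, had none at its island of 504 CpGs, nor had RTEL1, a helicase of telomere replication. Elsewhere on chromosomes 1 to 22, 8 of 18 genes of this list had one, 44.4% (21.5 to 69.2). The share over all coding promoters of these chromosomes was 43.7%.

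Genes of families duplicated between chromosome ends had a new peak at 13 of 96 promoters near ends, 13.5% (7.41 to 22), and at 4 of 130 elsewhere, 3.08% (0.845 to 7.69). Over genes of all types the share was 21.5%. No island was present at 60 of the 96 and at 113 of the 130 promoters. With an island of at least 75 CpGs the order was the opposite, at 9 of 26 promoters near ends, 34.6% (17.2 to 55.7), and 4 of 6 elsewhere, 66.7% (22.3 to 95.7). Both pairs of intervals overlap. The promoters near ends are not separate counts, because several share an island or a peak. The DUX4L copies within an array share the island over it, and FRG1 shares its peak with FRG1-DT. The intervals treat each promoter as separate, so the order in either comparison is uncertain. The highest folds of the list were those of the WASH copies, and FRG1 on 4q, a gene next to the DUX4 array, had 6.28 with 14 fragments over a rate of 1.39. DDX11L8 on 12p, a pseudogene of a helicase, had 2.35 with 60 fragments over 25.

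Zinc finger genes, many of which encode repressors of mobile elements, had a new peak at 26 of 84 promoters near ends, 31.0% (21.3 to 42.0), and at 158 of 469 elsewhere, 33.7% (29.4 to 38.2). Both intervals lie under the 43.7% of all coding promoters. The interval near ends overlaps that of all coding promoters near ends, 37.2 to 42.8. With a promoter island of at least 75 CpGs, the shares were 40.5% (24.8 to 57.9) and 63.5% (55.4 to 71). Over all coding promoters with such an island they were 54.3% and 74.8%, so the share was lower near ends there too. The interval of the zinc finger genes near ends includes the former, and their interval elsewhere lies under the latter. The median fold was 6.63 near ends and 7.45 elsewhere. The highest folds were 11.8 at ZSCAN22 on 19q, 11.1 at ZNF34 and 10.6 at ZNF250 on 8q, and 10.4 at ZNF749 on 19q. ZFPM1, a cofactor of GATA factors on 16q, had the largest promoter island of the genes without a new peak within 1000 bp of the start. That island, of 395 CpGs, held a new peak of fold 8.74 with its summit 2255 bp from the start.

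Developmental regulators, chosen by symbol, had a new peak at 15 of 26 promoters near ends, 57.7% (36.9 to 76.6), and at 83 of 168 elsewhere, 49.4% (41.6 to 57.2). The first interval includes the 43.7% of all coding promoters. With a promoter island of at least 75 CpGs, the shares were 63.6% (40.7 to 82.8) near ends and 57.1% (48.5 to 65.5) elsewhere. Over all coding promoters with such an island they were 54.3% and 74.8%. The interval near ends includes the former, and the interval elsewhere lies under the latter. The median fold of the regulators was 3.35 near ends and 6.62 elsewhere. FOXK2 on 17q had 16.8, SOX12 on 20p 14.5, HES4 on 1p 13.8 and FOXQ1 on 6p 10.7, each over a rate of 1.04 or less. By contrast NOTCH1, a receptor of cell fate decisions on 9q, had 3.13 over a rate of 12.4. IRX4 on 5p had 3.01 over 13.9, and GATA5 on 20q 3.15 over 12.6. FOXC1 had the largest promoter island of the 11 genes without a new peak. PAXX, a DNA repair factor with a fold of 2.49, entered this list by its symbol only.

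The target of the sgRNA lies in 1 of these windows, since the start of ISG15, an interferon-induced ubiquitin-like protein, is 948876 bp from the end of 1p. Its promoter did not overlap a peak of the list. An island of 35 CpGs, chr1:949330-949851, lies within 1000 bp of the start but does not include the start itself. The stretch that the paper analysed at the target by bisulfite sequencing includes the start and lies outside this island. The nearest new peak had its middle 11686 bp from the start, beside HES4, with a fold of 7.64. The list alone does not show that the target stayed unmethylated. In the paper, targeted bisulfite sequencing found strong methylation of the target with the wild type construct, and MBD-seq gave a signal there for both mutants.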

How the data were processed

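MBD-seq of HEK293 cells was done by the authors for 4 conditions with 1 library each, and the regions gained in the wild type library were analysed. For mapping to hg19 the authors used Bowtie2 with its defaults, and the submitters' processing notes also name FastQC, deepTools and MACS2. The settings of the peak caller and its control are not given in the sources used here. The deposited list has 10 columns: position, a score, the fold as a ratio over the background, the p-value and q-value as −log10 (smallest q 2.00), and the summit. The authors' score repeats the −log10 q and was not used.

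Fragments k and the background rate at a summit were solved from the fold, set to (k + 1)/(rate + 1), and from p, set to the Poisson probability of over k fragments, an inference that rests on the MACS2 layout. The total reads of the library were not used, and the median of 23 fragments per summit limits the precision.

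CpG islands were built from unmasked GRCh37 by scoring a CpG with 17 and another base with -1, and kept if over 200 bp with at least 50% GC and an observed over expected CpG ratio over 0.6. Tandem bases lay in windows of 50 pairs with 85% identity at a lag of 5 to 150 bp. Duplication was the share of exact 100-mers found elsewhere on either strand. Genes and starts came from GENCODE 44 lifted to GRCh37. Any overlap counted.

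Members and lists were chosen with earlier results of these data known. The peaks named are the 10 of highest fold, the 10 nearest to an end, the one with the most fragments and those at the limit. Of each list, 2 to 4 members of highest fold and the gene without a new peak with the largest promoter island are named, and of the windows with at least 20 islands, those of highest and lowest share. A few others, picked after their values were seen, are the largest islands without a peak, NOTCH1, IRX4, GATA5, HBQ1, NPRL3, AXIN1, DDX11L8 and PAXX. No p-value was computed. The steps were tested on simulated data. Alternatives covered the peak threshold, window, island criteria, overlap, promoter width and gene types. Software was blastn 2.17.0 and Python 3.11.15 with biopython 1.88, matplotlib 3.10.9, numba 0.67.0, numpy 2.4.6, scipy 1.17.1 and pandas 2.3.3.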

Additional observations from a re-analysis of the deposited data

How the results depend on the processing

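Of 59 alternative values, 36 stayed within the 95% interval of a share or within 1.5 times a count, ratio or median. A change of direction was defined for the ratios only, and none of these crossed 1. The ratio of island shares between ends and rest, plain or at the same CpG number, was under 1 in 20 of 20 alternatives (0.247 to 0.655).

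With peaks of at least the median fold, 215 new peaks remained near ends, the density ratio was 1.18, the island share 3.68%, the ratio of island shares 0.286, the ratio at the same CpG number 0.247, the promoter share 14.1%, the median fold 9.69 and the share in islands 98.1%. With a −log10 q of at least 10, these were 309 peaks, an island share of 5.08%, a promoter share of 18.7%, a median fold of 8.55 and 94.2% in islands. Windows of 1 Mb held 432 peaks, 86.3% of them in islands, and windows of 500 kb held 178, 88.8% in islands, with an island share of 13.4%. The island share was 28.0% with stricter islands (76.4% of peaks in islands), 14.4% without tandem or duplicated islands and 10.4% as the median over windows. The promoter share was 22.7% for genes of all types. These settings change the peaks, windows, islands or genes that are counted, and what moved each value was not tested. No paired analysis was possible because each condition came as a lone library.

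Of the peaks near ends, 24.5% reached the median fold of the whole list (7.45), so the fold threshold lowers counts more there than in the rest. Depth and the absence of replicates limit all values.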
